A study of Mus musculus with 6 samples.

Results

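Macrophages were studied among single cells of dispersed pancreatic islets of WT and KO mice. A barcode (the tag of 1 droplet) was taken as a macrophage when it held at least 500 genes, at most 10% of its UMIs (unique molecular identifiers, each standing for 1 captured transcript) on mitochondrial genes, under 25% on the insulin genes Ins1 and Ins2, a UMI of at least 4 of C1qa, C1qb, Lyz2, Cd68, Adgre1 and Csf1r, and no UMI of Cd3e or Cd79a, which mark T and B cells. These members were thus selected on their own UMI counts of these genes. The choice gave 605 macrophages of 27004 barcodes that met the filters on genes and mitochondrial UMIs and of 43445 deposited barcodes. The 3 WT libraries held 79, 130 and 62 macrophages and the 3 KO libraries held 96, 153 and 85.

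KO mice lacked 14-3-3ζ in β cells: Cre recombinase from the Ins1-CreThor line removed the loxP-flanked exon 4 of Ywhaz. WT littermates also carried Cre. All mice were of the C57/BL6 background and 12 to 14 weeks old, and islets recovered overnight and passed through removal of dead cells before 3′ single-cell RNA sequencing. Cre was driven from the Ins1 locus, so macrophages were not the cells in which the deletion was made, and a difference between genotypes in them is a difference between macrophages of KO and WT islets.

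Macrophages live in every islet beside the capillaries and the endocrine cells. They are known to take up secretory granule contents and dying cells, to degrade them in lysosomes, to present peptides on MHC class II and to release cytokines and growth factors. In mouse islets the resident population is known as CD11c-positive, F4/80-positive, MHC class II-high and lysozyme-rich, whereas macrophages of the exocrine stroma are in part rich in the mannose receptor Mrc1. They depend on Csf1r, the receptor for colony-stimulating factor 1, and on the transcription factor PU.1, encoded by Spi1.

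The 6 libraries held 74083947 to 98294915 UMIs in all, and the summed macrophages held 944611 to 1823243. The median macrophage held 12014 UMIs and 3268 genes, and the median per library ran from 10125 to 14854 UMIs. Library pairs shared 7 to 27 barcodes, and 0 of them were macrophages in both. Doublets (2 cells in 1 droplet) were called for 62 of 605 macrophages, and these were kept, with all tests repeated without them. The automatic doublet threshold gave calls in the first WT library only, and in the other libraries the highest-scored barcodes were called, so the calls are approximate. All libraries held Y-linked transcripts and 0 UMIs of Xist in macrophages, and libraries of the same genotype differed by more than counting error.

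The 6 genes of the choice are not findings, and their levels are given as a description. Levels below are CPM, the UMIs of a gene in the summed macrophages of a library scaled to a common total, with mean ± SD over the 6 libraries. A UMI counts a transcript end and not its length, so no length scaling was applied. C1qb, which encodes a chain of the complement starter C1q, stood at 2213 ± 187 CPM. Its values were 2480, 2091 and 2375 in WT and 2181, 2184 and 1968 in KO, against means of 1.11 in B cells and 1.21 in endothelial barcodes. The B cell, endothelial and dendritic barcodes used for comparison were chosen to lack a C1qa UMI, which can lower macrophage transcripts in them. In all other passing barcodes together the mean of C1qb was 6.76. Lyz2, the macrophage lysozyme, stood at 5298 ± 1058, Cd68, a lysosomal membrane protein, at 1084 ± 148, Csf1r at 321 ± 71.0 and Adgre1, which encodes F4/80, at 142 ± 11.7.

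The choice rests on a limit of 4 genes of 6. The 80 macrophages with exactly 4 of these genes had a median of 3090.5 UMIs and 13.3% insulin UMIs, and the 72 barcodes with exactly 3, which were not taken, had 3736 UMIs and 15.2%. Of the barcodes that had enough of the 6 genes, 58 were left out for a UMI of Cd3e or Cd79a, and 51.7% of those carried a doublet call. A further 53 were left out for insulin at or above the limit, 28 of them in the second KO library.

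Genes outside the choice matched the macrophage label. Apoe, a lipid carrier, stood at 19132 ± 2809 CPM, with 23742, 16301 and 18997 in WT and 20801, 16504 and 18450 in KO. The same gene stood at 1021 in B cells, 49.1 in endothelial barcodes and 63.5 in Ccr7 dendritic barcodes. All macrophage libraries lay far above these and close to each other. Cx3cr1, the fractalkine receptor, stood at 359 ± 48.1, Trem2, a lipid-sensing receptor, at 702 ± 115, and Itgax, which encodes CD11c, ran from 101 to 200.

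Several transcripts of neighbouring myeloid types were at or near 0, and others were not. Flt3 and Cd209a of dendritic cells, S100a9 of neutrophils and Cd163 of stromal macrophages had 0 UMIs in the 6 libraries. Ly6c2 of inflammatory monocytes stood at 1.57 CPM, Ccr7 at 1.37, Lyve1 at 0.739, Timd4 at 0.147 and Vsig4 at 0.68, whereas Ccr2, the monocyte homing receptor, stood at 14.8. Of 17 monocyte and neutrophil genes, 3 exceeded 10 CPM, as did 2 of 14 dendritic genes. Of the 14 genes listed for CD11c-type islet macrophages 12 did so, and 9 of 18 genes listed for Mrc1-type stromal macrophages. Mrc1 itself had a UMI in 19.0 to 45.2% of the macrophages of a library at full depth. Pf4, which is on the stromal list, stood at 612 CPM.

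**Figure D1:**
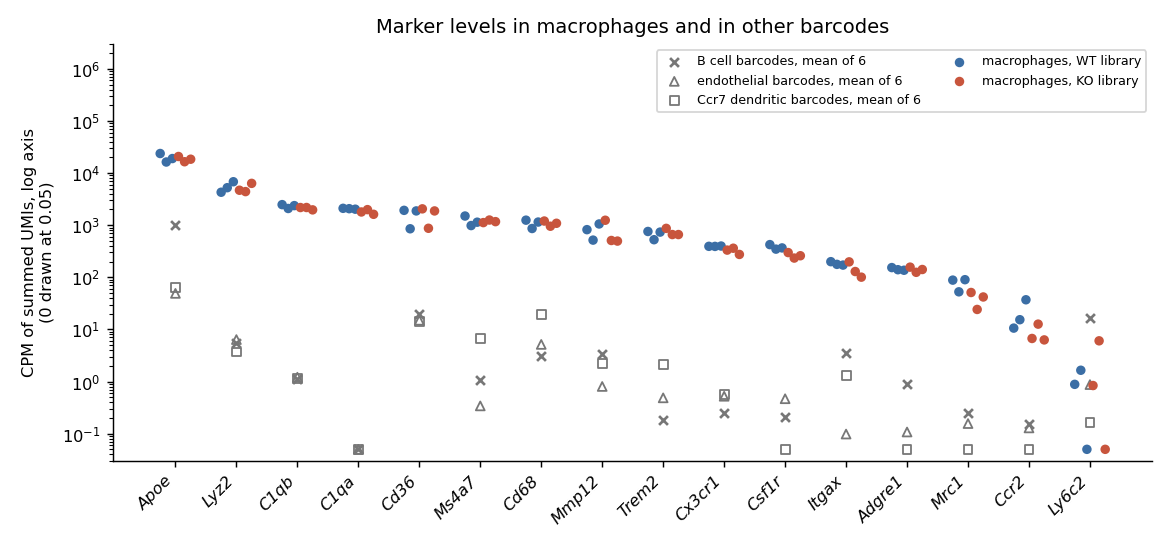
Levels of 16 genes (CPM of summed UMIs, log axis) in macrophages, 1 point a library (blue WT, red KO), with the mean of 6 libraries for B cell, endothelial and Ccr7 dendritic barcodes in grey. Apoe to Adgre1 lay above all comparison means in every library, and Ly6c2 reached at most 6.04 CPM in macrophages.

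Transcripts of iron storage, lysosomes and antigen presentation were among the 20 most abundant, together with Apoe, the cytoskeletal genes Tmsb4x and Actb and others. The iron-storing ferritin chains Fth1 and Ftl1 stood at 49920 ± 7167 and 23276 ± 3286 CPM. The cathepsins Ctsb, Ctsd and Ctss, which cut proteins in lysosomes, stood at 5742 ± 747, 4260 ± 1006 and 2432 ± 350, and Psap, the precursor of the saposins that help to degrade sphingolipids, at 5510 ± 849. Cd74, the MHC class II invariant chain, stood at 8215 ± 514 against 6805 in B cells, which also present antigen, and H2-Aa, a class II chain, at 2886 ± 338. Of 25 lysosomal genes 24 exceeded 10 CPM, as did 21 of 24 genes of scavenging and lipid handling, 16 of 16 lineage receptors and regulators, and 11 of 11 complement genes.

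Some transcripts varied more between libraries than others, within both genotypes. Cd36, a scavenger receptor for oxidised lipids, stood at 1926, 853 and 1878 CPM in WT and 2058, 872 and 1877 in KO. The second library of each genotype was low and the other libraries were alike, so the genotypes overlapped. Mmp12, the macrophage elastase, ran from 495 to 1244 CPM, with its highest values in the first KO and the third WT library. Trem2 ran only from 527 to 869, and Cd74 from 7645 to 8949.

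Secreted signals were at lower levels. Among cytokines, Il1b stood at 113 CPM and Tnf at 26.8 ± 2.71, whereas Il12b had 0 UMIs, Il6 stood at 0.0914 and Il10 at 1.42. Among growth factors, Tgfb1 stood at 241 ± 48.5, Vegfa, an endothelial growth factor, at 140.0 ± 52.8, Igf1 at 76.7 ± 27.5 and Pdgfb at 74.5 ± 5.75. Tgfb1 lay between 186 and 297 in all libraries, and Vegfa between 74.7 and 219.

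The ratio of the macrophage level to that of all other passing barcodes was largest, among genes of at least 100 CPM, for Trem2 (346), C1qc (339), C3ar1 (330), C1qb (327), C5ar1 (323) and Ms4a7 (317). C3ar1 and C5ar1 are receptors for complement fragments. Cx3cr1 (292), Cd36 (264), Pf4 (258) and Csf1r (234) were also among the leading 20. These ratios describe the cells chosen and carry no test, since the same barcodes defined the group.

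The promoters of the leading 20 genes were examined because these genes mark the macrophages most sharply. RefSeq windows of 250 bases before the transcript start (assembly GRCm38.p6) were found for 17 of the 20. The core GAGGAA of PU.1-type sites, sought on both strands and so also as TTCCTC, occurred in 10 of 17 (58.8%) against 25.9% of 27025 genes, and the TATA box TATAAA in 1 of 17 (5.88%) against 14.3%. The motifs cannot overlap each other by more than their ends, a match is a description of letters and not of binding, and these shares carry no test. The windows of Trem2, C1qc and C1qb, of the highest ratios with a match, and of Pf4, the gene described with the genotypes below, are shown 5′ to 3′ on the strand of the gene, with the core in capitals.
Trem2, chr17:48346151-48346400, plus strand: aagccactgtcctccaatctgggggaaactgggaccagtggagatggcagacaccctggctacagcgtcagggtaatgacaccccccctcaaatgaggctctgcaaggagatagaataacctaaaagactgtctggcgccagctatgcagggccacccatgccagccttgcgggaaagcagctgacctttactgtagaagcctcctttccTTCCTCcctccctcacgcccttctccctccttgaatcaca
C1qc, chr4:136892915-136893164, minus strand: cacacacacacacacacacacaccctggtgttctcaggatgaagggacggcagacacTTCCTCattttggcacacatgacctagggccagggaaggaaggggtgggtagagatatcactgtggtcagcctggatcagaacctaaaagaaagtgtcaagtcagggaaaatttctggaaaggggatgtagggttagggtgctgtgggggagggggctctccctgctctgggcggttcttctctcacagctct
C1qb, chr4:136886201-136886450, minus strand: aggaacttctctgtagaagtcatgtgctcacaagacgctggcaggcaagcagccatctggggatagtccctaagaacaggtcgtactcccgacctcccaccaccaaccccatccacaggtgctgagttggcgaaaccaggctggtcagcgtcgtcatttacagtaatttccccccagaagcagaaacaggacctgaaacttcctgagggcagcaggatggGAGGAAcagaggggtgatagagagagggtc
Pf4, chr5:90772185-90772434, plus strand: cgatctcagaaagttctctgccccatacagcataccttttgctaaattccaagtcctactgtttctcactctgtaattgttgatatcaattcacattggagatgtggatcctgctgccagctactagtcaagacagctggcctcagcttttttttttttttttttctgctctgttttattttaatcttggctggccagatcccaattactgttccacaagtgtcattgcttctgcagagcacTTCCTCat
In Pf4 the core lay 2 bases before the annotated start, and in the C1q genes at different distances from it.

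Endocrine transcripts were present in macrophage barcodes, as in all barcodes of these libraries. The median insulin share per library was 0.709, 3.48 and 2.04% in WT and 2.05, 5.56 and 3.31% in KO. Ins2 made up 1.07 to 6.93% of the summed UMIs of macrophages and 1.48 to 9.65% of those of B cells, which do not make insulin, and was higher in B cells in every library. Sst, the δ cell hormone, behaved otherwise in all but the first KO library, at 0.0535 to 0.868% in macrophages against 0.0322 to 0.0704% in B cells. In the first KO library it made up 0.0535% in macrophages and 0.0704% in B cells. Ppy, of pancreatic polypeptide cells, made up 1.14, 1.55 and 0.565% in WT and 0.0402, 0.930 and 0.165% in KO macrophages. In no library did more than 3 macrophages hold over 5% Ppy UMIs, and in the 3 WT libraries and the second KO library these few cells held 52.2 to 98.3% of all Ppy UMIs, so the sums of Ppy describe few barcodes. The median macrophage of each library held at most 0.0294% Sst.

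The first comparison asked whether the abundance of macrophages differed between KO and WT islets. They made up 4.23, 1.59 and 2.03% of passing barcodes in WT and 3.11, 2.34 and 1.99% in KO. The exact binomial 95% interval was 3.36 to 5.25% in the first WT library and 1.60 to 2.46% in the third KO library, and such intervals cover counting error only. The means were 2.62 ± 1.42% (SD) and 2.48 ± 0.570%, and the groups overlapped fully (difference −0.136 percentage points, 2-sided exact permutation test p = 0.9). With 3 libraries against 3, that test cannot give a p below 0.1. As a share of barcodes under 25% insulin, the means were 5.41% and 6.22% (p = 0.8 by the same permutation test), so the direction depended on the denominator.

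The second comparison asked which genes differed between macrophages of KO and WT islets. The targeted gene Ywhaz stood at 229, 216 and 249 CPM in WT macrophages and 204, 196 and 199 in KO (CPM scaled by TMM, as for all values between genotypes below). The 3 KO libraries were lower than all WT libraries, but the log2 fold change was −0.21 ± 0.12 (SE; unadjusted p = 0.10, edgeR). The libraries read transcript ends, so this level does not show whether exon 4 was present. Of the other 14-3-3 genes, Ywhaq had the largest log2 fold change, at 0.22, and Ywhab, Ywhae, Ywhag and Ywhah lay between −0.05 and 0.14.

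No gene of 9121 tested was called (0%; quasi-likelihood fit of edgeR, Benjamini-Hochberg adjusted p under 0.05). The smallest adjusted p was 1.00, and DESeq2 called 3 genes, Il1b, Pf4 and Prss2. An unadjusted p under 0.05 was found for 336 genes (3.68%), of which 144 were higher (1.58%) and 192 lower in KO (2.11%). The libraries of the genotypes did not overlap for 867 (9.51%), of which 424 were higher (4.65%) and 443 lower in KO (4.86%). The values that follow are therefore given as measured, and none passed the adjusted test. In summed cells, fewer cells of one kind and less RNA per cell cannot be told apart. The labels call the libraries replicates of islets from mice, and the p-values measure the spread between these libraries.

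Pf4, the chemokine platelet factor 4 (GRCm38, chromosome 5, 90772435 to 90773383, plus strand), was an abundant transcript without overlap between genotypes. It stood at 944, 978 and 866 CPM in WT and 177, 437 and 302 in KO. All WT libraries were above all KO libraries, as for 4.86% of all genes tested, and the spread among WT libraries was small. The log2 fold change was −1.60 ± 0.31 (SE; unadjusted p = 0.00168, edgeR). It ran from −2.0 to −1.33 over the 18 settings run, and Pf4 passed the adjusted threshold in 6 of them. Among platelet genes, Gp9 and Itga2b had 0 UMIs and Ppbp had 1 after each cell was thinned to 2000 UMIs. Of 11 listed platelet genes 2 were tested, Pf4 included, and the other had a log2 fold change of 0.39. Pf4 was also on the list of Mrc1-type stromal macrophage genes, of which 4 of 9 tested were positive and 5 negative (median −0.21). The summed level of that list was 1932, 1586 and 1675 CPM in WT and 1095, 1078 and 1003 in KO (unscaled). Pf4 alone made up 948, 989 and 848 CPM of it in WT and 176, 416 and 293 in KO. The source of the Pf4 transcripts was not tested.

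Il1b, which encodes the cytokine interleukin-1β, stood at 202, 136 and 134 CPM in WT and 87.5, 48.0 and 72.7 in KO. The lowest WT library was above the highest KO library, and the log2 fold change was −1.19 ± 0.24 (SE; unadjusted p = 6.11e-04, edgeR; passing the adjusted threshold in 4 of 18 settings). Csf1r, one of the genes by which the cells were chosen and so given as a description only, stood at 422, 343 and 374 CPM in WT and 300, 246 and 267 in KO.

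Some other receptors had the same order. The mannose receptor Mrc1 stood at 87.9, 52.1 and 91.9 CPM in WT and 51.3, 25.4 and 43.2 in KO (log2 fold change −0.95 ± 0.30 SE), and the second WT library lay close to the highest KO library. Clec4n, the dectin-2 receptor for fungal sugars, stood at 308, 187 and 186 CPM in WT and 99.3, 139 and 107 in KO (−0.97 ± 0.22). After thinning to equal depth the log2 fold change of Clec4n was −0.45. Mertk, a receptor for dying cells, stood at 76.5, 56.4 and 75.7 CPM against 53.8, 35.8 and 41.1 (−0.67 ± 0.20). Itgb2, the β2 integrin chain of the complement receptors, stood at 323, 230 and 274 against 196, 188 and 192 (−0.52 ± 0.14). For each of these receptors every KO library was below every WT library, and none passed the adjusted edgeR test. They were named as list members of low p, and 4.86% of all genes tested were lower in KO without overlap. Other receptors, such as Trem2 and Cd36, overlapped, as given below.

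**Figure D2:**
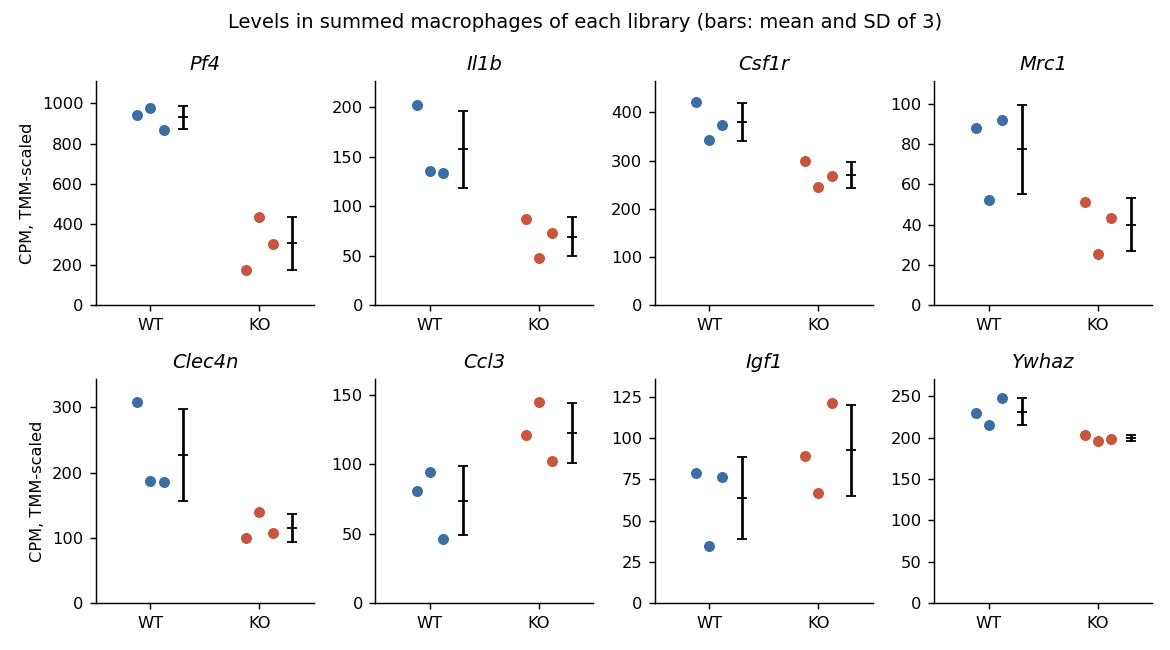
Levels of 8 genes in the summed macrophages of each library (TMM-scaled CPM, linear axes from 0), with 1 point a library (blue WT, red KO) and the mean and SD of 3 beside them. Pf4, Il1b, Clec4n and Ywhaz did not overlap between genotypes and were lower in KO, Mrc1 was lower with a narrow gap, Ccl3 was higher in KO, Igf1 overlapped, and Csf1r is a gene by which the cells were chosen.

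By the rule for named genes, the genes of lowest p among those lower in KO without overlap were, beside Il1b and Clec4n, Dnase1l3, Dleu2, Ier3 and Eno1. Dnase1l3, a secreted nuclease, stood at 44.8, 42.3 and 23.8 CPM in WT and 10.1, 15.6 and 12.2 in KO, and its log2 fold change was −1.54 ± 0.28. Ier3, an immediate early gene, stood at 113, 87.9 and 111 against 63.9, 43.9 and 68.4 (−0.83 ± 0.19), and the glycolytic enzyme gene Eno1 at 222, 228 and 194 against 147, 83.8 and 135 (−0.83 ± 0.19). Eno1 has a near-identical copy in the genome, so its count is uncertain. The noncoding RNA Dleu2 stood at 78.2, 77.6 and 87.6 CPM in WT and 53.0, 38.1 and 51.1 in KO (−0.78 ± 0.17). That the ranges of the genotypes lay apart was set by this rule, and 4.86% of all genes tested were lower in KO without overlap. Each of these genes had an adjusted p of 1.00 by edgeR with Benjamini-Hochberg adjustment.

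Genes of lowest p that were higher in KO were mostly at low levels, and several are not known as macrophage genes. Col5a2, a fibrillar collagen, had 0, 4 and 0 UMIs in WT and 15, 15 and 13 in KO macrophages. Cyb561 (log2 fold change 1.57 ± 0.39 SE) and Sytl4 (1.09 ± 0.31), both of secretory granules, Try4, a trypsinogen (2.90 ± 0.68), Insig1, a sterol sensor partner (0.86 ± 0.25), and Smc4, a condensin subunit (0.90 ± 0.26), completed the 6. Sytl4 stood at 7.03, 17.9 and 15.1 CPM in WT and 26.1, 35.2 and 25.9 in KO, and Insig1 at 10.5, 15.2 and 15.1 against 23.6, 24.8 and 26.6.

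Acinar transcripts were higher in KO macrophages without passing the adjusted test. Of 12 listed acinar genes 5 were tested, and all 5 had a positive log2 fold change, with a median of 2.58 against −0.003 over all genes tested. Prss2 (3.38 ± 1.13 SE), Try4, Ctrb1 (2.19 ± 0.55) and Cela3b (2.58 ± 0.68) did not overlap, against 4.65% of all genes that were higher without overlap. The summed level of the 12 genes was 45.5 to 71.5 CPM in WT and 104 to 598 in KO macrophages, with Amy2a1 at 0. It was 9.72 to 140 CPM in WT and 12.9 to 148 in KO endothelial barcodes, which overlapped. The summed level in macrophages was highest in the third KO library. Acinar cells do not belong to the islet, and the part of their RNA in the other values of that library was not tested. Ductal transcripts were 103 to 432 CPM in WT and 270 to 1452 in KO macrophages, with Krt8 at 464 CPM in the first KO library and at most 76.0 in the other 5.

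Chemokines went both ways. Of 15 tested, 7 had a positive and 8 a negative log2 fold change (median −0.07). Ccl3, an attractant of leukocytes, stood at 80.9, 94.4 and 46.5 CPM in WT and 121, 145 and 102 in KO, with no overlap (0.70 ± 0.23 SE). Ccl9, of the same family, stood at 143, 67.3 and 70.3 in WT and 47.1, 42.8 and 46.1 in KO (−1.04 ± 0.29), but at −0.24 after thinning. Cxcl16, a membrane-bound chemokine, ran from 426 to 531 CPM over the 6 libraries (−0.07 ± 0.12).

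Among cytokines, 5 of 7 tested had a negative log2 fold change (median −0.24). Of these, 2 had an unadjusted p under 0.05 (edgeR), Il1b included. Tnf, like Il1b made by activated macrophages, ran from 22.4 to 30.7 CPM (unscaled) over the 6 libraries, with overlap (−0.06 ± 0.21). Osm, oncostatin M, stood at 49.2, 33.1 and 44.3 against 37.0, 20.2 and 25.2 (−0.62 ± 0.25), with overlap. The NF-κB feedback list had 11 of 14 genes with a negative log2 fold change (median −0.17), with Nfkbiz at −0.66 ± 0.23 and Tnfaip2 at −0.40 ± 0.15. Of 15 genes of the interferon response 11 were negative (median −0.18), but 7 without WT library 1 (median 0.0041), 7 without WT library 2 (0.0202), 7 without KO library 3 (0.0118) and 13 without WT library 3 (−0.60). With insulin under 10% they were 6 of 14 (median 0.0527), so the list had no stable direction. Their summed level overlapped, at 502 to 1077 CPM in WT and 606 to 1026 in KO.

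Lineage receptors and regulators leaned to the negative side, with 15 of 16 genes, Csf1r included, and a median log2 fold change of −0.22. Maf, a regulator of mature macrophages, stood at 87.0, 77.0 and 65.9 CPM in WT and 58.9, 56.0 and 59.1 in KO (−0.41 ± 0.15), whereas Cebpa (0.10 ± 0.16) overlapped. This lean was lost when only cells with at most 1 gene of lymphoid, endothelial or mesenchymal type were kept, an alternative added after seeing the data, where 8 of 16 genes were negative (median −0.02). Of 10 complement genes 9 were negative (median −0.31), and C1qc, the chain that took no part in choosing the cells, had a log2 fold change of −0.16 ± 0.11. C1qa and C1qb, which did, stood at −0.16 ± 0.12 and −0.10 ± 0.12.

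Lysosomal and scavenging genes had medians near 0. Of 23 lysosomal genes 8 were positive and 15 negative (median −0.04; range −0.27 to 0.20), and of 21 scavenging genes 10 and 11 (median −0.04). Lyz2 stood at 4269, 5186 and 6963 CPM in WT and 4704, 4641 and 6542 in KO (−0.05 ± 0.20), and Apoe at −0.05 ± 0.15, Cd68 at 0.03 ± 0.15, Cd36 at 0.07 ± 0.47 and Trem2 at 0.15 ± 0.16. All 5 overlapped between genotypes, and Lyz2 and Cd68 are genes by which the cells were chosen. MHC class II genes had 4 positive and 5 negative of 9 (median −0.18), with H2-Aa at 0.09 ± 0.14 and the costimulator Cd86 at −0.46 ± 0.17. Cd86 was at −0.0039 when only cells with at most 1 gene of lymphoid, endothelial or mesenchymal type were kept. MHC class I genes were 4 and 4 of 8 (median 0.00). Spp1, osteopontin, varied widely, at 22.9, 125 and 48.6 CPM in WT and 457, 90.7 and 168 in KO.

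**Figure D3:**
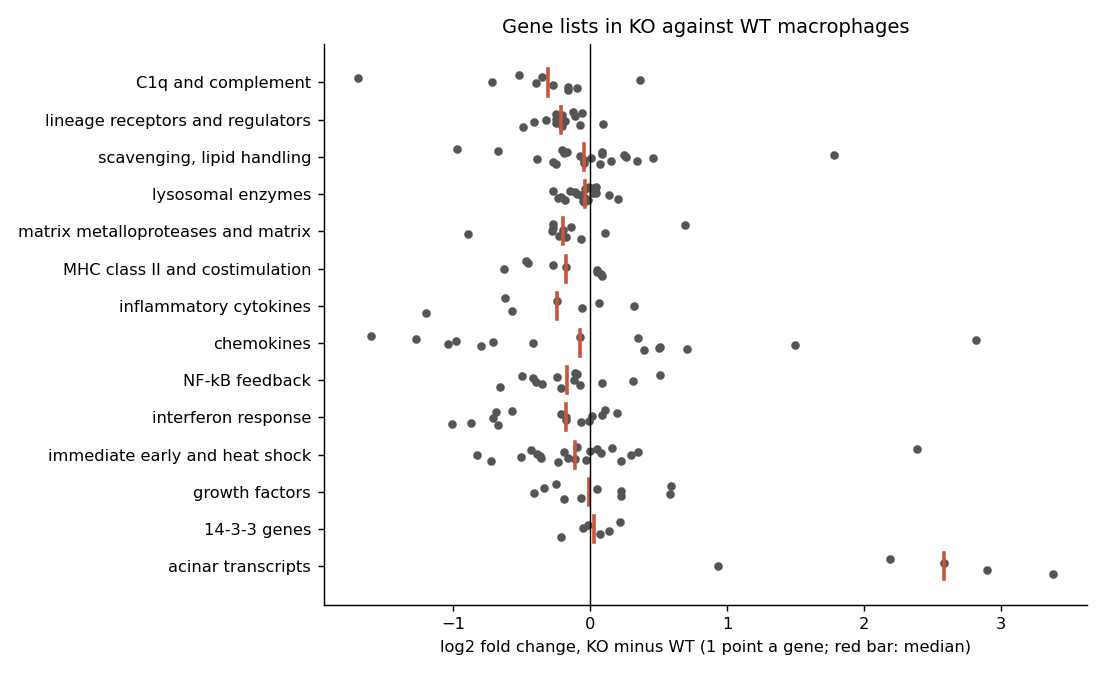
Log2 fold change, KO minus WT, of each tested gene in 14 lists, 1 point a gene, with the list's median as a red bar. Lysosomal genes lay within −0.27 to 0.20, the lineage and complement lists leaned to the left with medians of −0.22 and −0.31, and the 5 acinar genes all lay above 0.

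The level of Pf4 rested on few cells. With each cell thinned to 2000 UMIs (587 of 605 cells were deep enough), Pf4 had a UMI in 32.9, 27.3 and 23.7% of WT and 17.8, 22.4 and 18.8% of KO macrophages, and in 3 of 2800 B cells (0.107%) whose unthinned median depth was 3880 to 5416 UMIs per library. The WT shares were all above the KO shares. Cells with at least 5 Pf4 UMIs, a limit chosen after the values were seen and given without a test, numbered 7 of 73, 13 of 128 and 5 of 59 in WT and 1 of 90, 6 of 152 and 2 of 85 in KO. These were 9.59, 10.2 and 8.47% of WT and 1.11, 3.95 and 2.35% of KO macrophages. They held 75.6, 84.4 and 85.4% of the Pf4 UMIs in WT and 22.9, 57.4 and 70.9% in KO. The highest single cell held 55 Pf4 UMIs, in the second WT library, and 1 of the 34 Pf4-rich cells carried a doublet call.

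**Figure D4:**
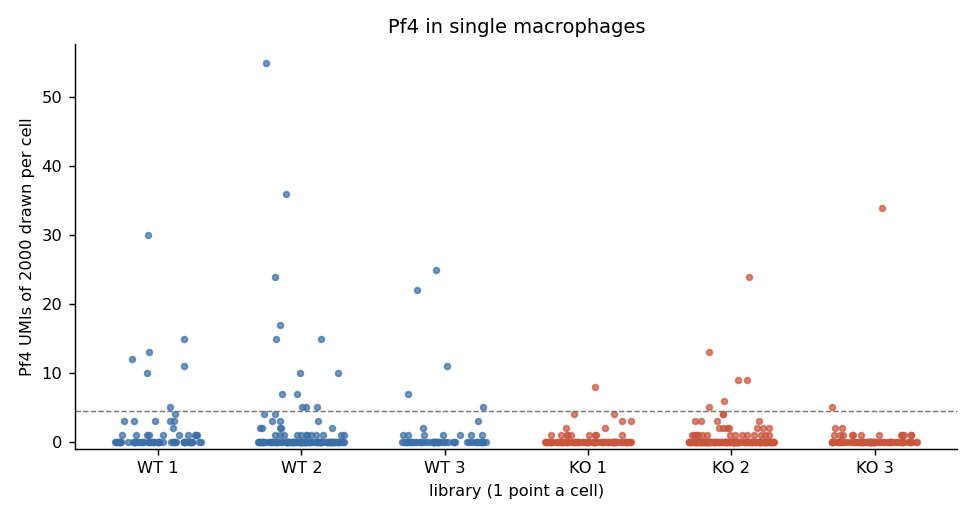
Pf4 UMIs in each macrophage after thinning to 2000 UMIs, 1 point a cell, for the 3 WT (blue) and 3 KO (red) libraries, with a dashed line just under 5 UMIs. Most cells were at 0 or 1, and 25 WT and 9 KO cells held at least 5.

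The 34 Pf4-rich macrophages were compared with the rest as a description, pooled over libraries. Pf4 itself stood at 7206 CPM against 157. Cxcl3, another chemokine, stood at 426 against 42.5 and was higher in 5 of 6 libraries, and Hmox1, which degrades haem, at 3118 against 1812. Csf1r stood at 529 against 336 in these cells (higher in 4 of 6 libraries) and C1qa at 2544 against 2095 (5 of 6). Both are genes by which the cells were chosen. Pf4-rich cells were more frequent in WT, as given above, so the pooled values mix genotype with Pf4 level. Il1b stood at 73.5 against 146, but on only 5 UMIs in the Pf4-rich cells, too few to give an order. The share of Il1b UMIs in the tenth of cells with the most of them was 75.2 to 89.2% per library, against 23.4 to 31.5% for Csf1r, so Il1b too was carried by few cells.

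Igf1, which was singled out after its values were seen, was found in more KO macrophages although its level overlapped. It had a UMI in 8.22, 4.69 and 8.47% of WT and 16.7, 13.2 and 24.7% of KO cells at 2000 UMIs, and in 19.0, 19.2 and 17.7% against 32.3, 30.1 and 42.4% without thinning. In both readings all KO shares were above all WT shares. The thinned UMIs are drawn from the unthinned ones, so the readings are not separate support. How many other genes have shares that separate the genotypes was not counted. By level, 4.65% of all genes tested were higher in KO without overlap. An Igf1 UMI was found in 1 of 2800 B cells and 8 of 1287 endothelial barcodes (0.622%). Its level was 79.1, 34.7 and 76.8 CPM in WT and 89.2, 67.0 and 122 in KO (log2 fold change 0.58; unadjusted p = 0.144, edgeR).

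The share of macrophages with an Mrc1 UMI was compared because stromal macrophages are rich in this receptor. At 2000 UMIs it was 9.59, 9.38 and 22.0% in WT and 12.2, 6.58 and 7.06% in KO, with means of 13.7 ± 7.25% and 8.62 ± 3.13% (difference −5.05 percentage points, 2-sided exact permutation test p = 0.4). The groups overlapped, and the third WT library stood apart. Without thinning the shares were 40.5, 36.9 and 45.2% in WT and 27.1, 19.0 and 29.4% in KO, which did not overlap (exact permutation p = 0.1, the smallest possible). At 1000 UMIs they were 11.4, 6.15 and 9.68% against 3.13, 2.61 and 3.53%. The share in endothelial barcodes was 0.155% at 2000 UMIs.

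Mmp12 was found in 46.6, 35.2 and 37.3% of WT and 50.0, 43.4 and 37.6% of KO macrophages, against 0.179% of B cells. The means were 39.7 ± 6.07% and 43.7 ± 6.18%, and the groups overlapped (difference 4.02 percentage points, 2-sided exact permutation test p = 0.5). Transcripts of cell division were rare. At 2000 UMIs, 0 of 73, 128 and 59 WT cells and 1 of 90, 0 of 152 and 0 of 85 KO cells had UMIs of at least 3 division genes. Without thinning 5 of 605 cells did, 3 of them with a doublet call, and 1 cell of the first KO library held 14 division genes and 28 of the 30 Mki67 UMIs of its library.

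The third comparison asked how macrophages with an Mmp12 UMI differed from those without one in the same library. Of 1852 genes tested over 6 libraries, 48 were called (2.59%), 35 higher (1.89%) and 13 lower (0.702%) in cells with Mmp12 (edgeR with library as a block, Benjamini-Hochberg adjustment). Cd36 stood at 2562, 2160 and 3967 CPM with and 1351, 886 and 1480 without Mmp12 in WT, and at 2995, 1670 and 3944 against 2091, 885 and 2363 in KO. It was higher in all 6 libraries, and the log2 fold change was 0.95 ± 0.10 (SE; edgeR Benjamini-Hochberg adjusted p = 2.41e-10). Prdx1, a peroxidase, rose by 0.76 ± 0.08, from 5460 to 9176 CPM on average (edgeR Benjamini-Hochberg adjusted p = 2.73e-10).

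Other genes rose as well. Slc40a1, the iron exporter ferroportin, stood at 371 CPM with and 186 without Mmp12 (1.03 ± 0.21), Hmox1 at 2915 and 1983 (0.61 ± 0.11), and Fth1 at 79655 and 60543 (0.40 ± 0.08). Lpl, lipoprotein lipase, stood at 1637 and 1083 (0.59 ± 0.10), and Lipa, the lysosomal acid lipase, at 1554 and 1140 (0.43 ± 0.10). Each of these was higher with Mmp12 in 6 of 6 libraries. Il7r, the interleukin-7 receptor chain, rose by 0.91 ± 0.18, Lilr4b, an inhibitory receptor, by 0.82 ± 0.20, Clec4d, a C-type lectin, by 0.65 ± 0.17, and Rnh1, a ribonuclease inhibitor, by 0.63 ± 0.15. Lilr4b has a closely related neighbour, so its count is uncertain.

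Of 23 lysosomal genes tested 5 were called, all higher, and 19 had a positive log2 fold change, with Psap at 0.51 ± 0.09 (0.0537 without thinning) and Ctsd at 0.29 ± 0.09. Of 7 MHC class II genes 3 were called, all higher, at 0.33 ± 0.08 for Cd74, 0.32 ± 0.09 for H2-Eb1 and 0.30 ± 0.09 for H2-Aa. These were called in 7, 5 and 2 of 17 settings, and without thinning stood at 0.105, 0.0603 and 0.0392. Of 19 scavenging genes 4 were called. The background in this comparison was the 1.89% called higher over all genes. Apoe (0.01 ± 0.08), Lyz2 (0.10 ± 0.09), C1qb (−0.10 ± 0.09) and Cx3cr1 (−0.10 ± 0.15) were not called, and Pf4 (0.22 ± 0.54) varied widely. Lyz2 and C1qb are genes by which the cells were chosen, so their values are a description.

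Genes that fell included Maged1 (−1.19 ± 0.31), Nupr1 (−1.13 ± 0.31) and Chga (−0.81 ± 0.15), the last a granule protein of endocrine cells. All 12 endocrine transcripts tested had a negative log2 fold change (median −0.85), of which 2 were called. Doublet calls were fewer among cells with Mmp12 in each library, at 0 to 9.09% against 5.13 to 16.3%, and their part in the result was not tested. Slc40a1, Cd36, Prdx1 and Lpl were called in 17 of 17 settings, those without doublet calls included, Il7r and Psap in 16, Hmox1 and Fth1 in 14, Lipa, Lilr4b and Clec4d in 10, and Rnh1 and Maged1 in 8. Nupr1 was called in 4 of the 13 settings that tested it and Chga in 12 of 16.

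**Figure D5:**
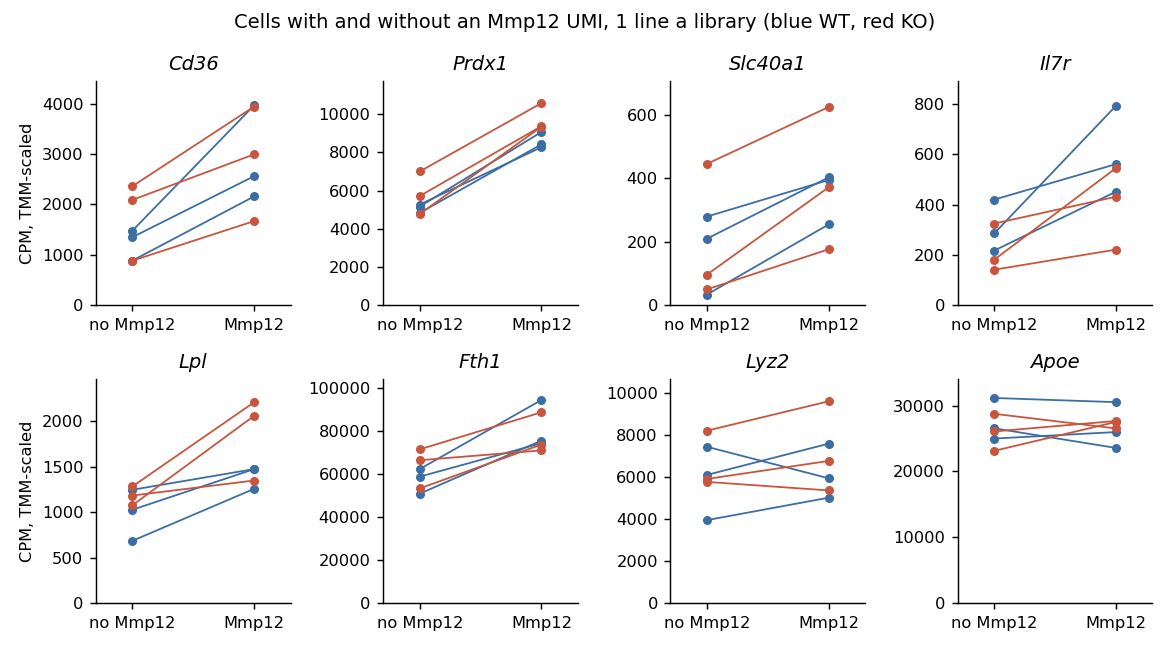
Levels of 8 genes in summed macrophages without and with an Mmp12 UMI (thinned cells, TMM-scaled CPM, linear axes from 0), 1 line a library (blue WT, red KO). Cd36, Prdx1, Slc40a1, Il7r, Lpl and Fth1 were higher with Mmp12 in all 6 libraries, whereas Lyz2 and Apoe went both ways.

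The same comparison for Mrc1 could use the 4 libraries with at least 10 cells on each side, which were WT libraries 2 and 3 and KO libraries 1 and 2. Of 1065 genes 12 were called (1.13%), all lower in cells with Mrc1, and 6 of the 12 were on the list of endocrine transcripts, with Sst at −4.69 ± 0.39, Chga at −1.70 ± 0.30, Pcsk2 at −1.52 ± 0.32 and Ins2 at −0.85 ± 0.12. Sst stood at 0, 205, 119 and 138 CPM with and 5689, 3341, 575 and 2934 without Mrc1. Before thinning, at most 3 macrophages in any of these 4 libraries held over 5% Sst UMIs. Such cells held 0 to 37.7% of the Sst UMIs of their library. At an unadjusted p under 0.05, edgeR gave 40 genes higher and 48 lower with Mrc1. Lineage receptors and regulators had a positive log2 fold change for 9 of 10 genes and complement genes for 7 of 7. Over all genes tested, 576 of 1065 were positive. These 2 lists include Csf1r, C1qa and C1qb, by which the cells were chosen, so the counts are a description. Pf4 stood at 2172, 1078, 534 and 1103 CPM with and 1308, 957, 230 and 508 without Mrc1 (0.73 ± 0.22; edgeR Benjamini-Hochberg adjusted p = 0.133). Pf4 was thus higher in cells with Mrc1 in 4 of 4 libraries without passing the test. Cd36 (0.06 ± 0.17) and Apoe (0.01 ± 0.11) were near 0.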

How the data were processed

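Islet cells of 3 WT and 3 KO libraries were profiled with 10x Genomics 3′ chemistry, and per the labels the authors used Cell Ranger 6.0.2, Seurat and the mm10 build. The deposited matrices hold raw UMI counts per gene and barcode, with no normalization. Groups and replicate numbers came from the sample labels. The 32285 gene identifiers were paired with symbols in the files, and 99.6% were found in GENCODE vM21 (GRCm38), which gave the positions. The annotation and build of the promoter windows were RefSeq GRCm38.p6.

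Counts of macrophages were summed per library, since cells of 1 mouse are not replicates, and tested with edgeR 4.0.16 in R 4.3.3 (filterByExpr, TMM, robust quasi-likelihood fit, Benjamini-Hochberg over all genes tested). Calls required an adjusted p under 0.05 and a log2 fold change beyond 0.1 in either direction. Shares were compared by 2-sided exact permutation tests after thinning each cell to 2000 UMIs, which leaves out shallower cells. The exact binomial intervals were computed with SciPy 1.17.1. Splits by Mrc1 or Mmp12 compared sums within libraries holding 10 or more cells on each side, with library as a block. Doublets were scored with Scrublet in scanpy 1.11.5. Comparison barcodes lacked C1qa and held 3 of 4 B cell markers, 4 of 6 endothelial markers, or Ccr7 with 1 of Fscn1, Ccl22 and Ccl17. Procedures were tested on simulated data. The study's own test, made over single cells, was not used.

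Named genes were the called genes, the 6 higher and 6 lower genes of lowest p without overlap between genotypes, the given markers, the 14-3-3 genes and examples from 27 gene lists, those of lowest p or highest level first. For levels they were the 20 of highest level or of highest ratio, and for splits the 8 largest called changes in each direction shared by all libraries. The macrophages, lists and markers were chosen with earlier results of these data known. Depth limited low genes: 1 UMI is about 1 CPM in the smallest sum. Alternatives were DESeq2 1.42.0, its size factors, no count filter, other limits on insulin, mitochondrial UMIs and marker genes, endocrine transcripts or doublet calls left out, thinning or none, each library left out, and a replicate block.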

Additional observations from a re-analysis of the deposited data

How the results depend on the processing

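Between genotypes, edgeR called 0 genes in the reported fit, 0 to 2 with any 1 library left out (2 without the first KO library, Cpb1 and Pf4), 3 by DESeq2, 46 without the count filter, 2 with thinned cells (Il1b and Pf4), 1 with insulin under 10% and 1, again Pf4, with at most 1 lymphoid, endothelial or mesenchymal gene, an alternative added after seeing the data. The labels do not say whether the replicate numbers pair the libraries. Same-numbered libraries correlated at 0.269, 0.374 and 0.033, and 2 of the 3 best with their own number. Whether same-numbered libraries were made together was not tested. With the replicate number as a block 17 genes were called. For 35 of the genes named between genotypes, the direction was the same in 590 of 590 alternative values, of which 30 passed the threshold, and the others were not followed. Many of the 35 were named for a low p or for libraries without overlap, and the alternatives reuse the same libraries. The constant direction was thus in large part set by that choice and is no separate support.

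For the Mmp12 split the 48 calls became 33 without thinning (14 higher and 19 lower, with 7 genes in common with the 48), 14 with DESeq2, 30 without the filter, 27 with 5 of 6 marker genes, 14 with insulin under 10%, 20 with mitochondrial UMIs at most 5%, 30 without doublet calls, 20 with at most 1 other-lineage gene, and 20 to 62 with 1 library left out. Without thinning the log2 fold change reversed for Rnh1 (−0.0173), Nupr1 (0.0754), Scg5 (0.33), Peg3 (0.79), Cpe (0.23), Chga (0.28) and Scg2 (0.10), and with insulin under 10% for Peg3 (0.0372). The cause was not tested.

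For the Mrc1 split the 12 calls became 3 with DESeq2, 75 without the filter, 5 without endocrine transcripts, 43 without thinning (16 higher and 27 lower, with 1 gene in common with the 12), 3 with 5 of 6 marker genes, 4 with insulin under 10%, 6 without doublet calls and 8 to 12 with 1 library left out. It could not be fitted with at most 1 other-lineage gene, which left too few cells.

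The difference in macrophage share reversed without the first WT library (0.672 percentage points), without the third KO library (0.107) and over barcodes under 25% insulin (0.811), and ran from −0.649 to 0.672 with 1 library left out. The Mmp12 share difference became −6.17 at 1000 UMIs. With 1 library left out it ran from 0.861 to 7.47, that of Mrc1 from −7.19 to −0.862 and that of dividing cells from 0 to 0.556. With 62 to 153 cells a library, shares of rare cells have wide counting errors.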
